A study of Mus musculus with 2 samples.

Results

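The genes described here encode the building blocks of the actin cytoskeleton and the proteins that handle actin next to them: the cytoplasmic actins (Actb, Actg1), profilins (Pfn1, Pfn2), cofilins (Cfl1, Cfl2), beta thymosins (Tmsb4x, Tmsb10) and the microvillus proteins ezrin and villin (Ezr, Vil1). They are 10 of the 43346 mouse genes measured, and every one had a row. The 10 were chosen by symbol after their levels in these same libraries were known, so their levels and order are given as a description, with no test. The material was whole stomach of mice of the inbred strain C57BL/6J, at 8 weeks of age, with no treatment or altered allele named. Tissue from males and females was pooled, and both libraries carry the same donor record, so the spread reported is that between these libraries and may not be that between independent animals. Polyadenylated RNA was sequenced as strand-specific pairs, in 2 libraries (replicates 1 and 2) of 1 group, and no other tissue or condition was compared.

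Actin cycles between single subunits and filaments. Profilin binds actin subunits and feeds them to growing filament ends, beta thymosins hold subunits in reserve, and cofilin severs old filaments and so returns subunits to the pool. Ezrin ties filaments to the cell membrane and villin bundles them inside microvilli. In the stomach, parietal cells rebuild actin-rich microvilli when they secrete acid, and ezrin is a well-known protein of those membranes.

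Replicate 1 held 52363597 and replicate 2 held 62452468 expected read pairs, that is, read pairs assigned to genes by a model that divides the ambiguous ones. Of all mouse genes, 25.2% had a TPM (the deposited level, scaled to transcript length and to the library) of 1 or more in both libraries, against 9 of the 10 genes here. All 10 are protein-coding, and of the 21474 protein-coding genes 10499 reached that level in both libraries. The markers of stomach cell types were present, with 4 of 4 chief cell, 4 of 4 parietal cell and 4 of 4 pit cell genes at 1 TPM or more in both. Together the 10 genes took 1.11% of the summed TPM of replicate 1 and 0.719% of replicate 2.

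Actb, which encodes beta actin (mm10 chromosome 5, 142903115 to 142906754, minus strand), was the highest of the 10. Its TPM was 6147 in replicate 1 against 4423 in replicate 2, which placed it at rank 11 among all genes by mean. Actg1, which encodes gamma actin (chromosome 11, 120345690 to 120348542, minus strand), stood at 1142 and 992 TPM (mean 1067 ± 106, SD, n = 2; rank 66). Both were lower in replicate 2 and their levels did not overlap. The coding sequences of the pair are 1125 bases long and 88.6% identical, and 120 of the 128 differences fall on the third base of a codon. The longest stretch without a difference is 62 bases, shorter than a read of 76. The first 120 coding bases are shown, because they let the reader see what separates reads of the 2 genes; capitals mark the bases that differ, 22 in all (transcript sequences of GENCODE M21, sense strand).
Actb-201: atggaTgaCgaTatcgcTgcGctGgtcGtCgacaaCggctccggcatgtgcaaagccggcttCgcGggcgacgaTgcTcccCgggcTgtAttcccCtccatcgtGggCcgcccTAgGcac
Actg1-202: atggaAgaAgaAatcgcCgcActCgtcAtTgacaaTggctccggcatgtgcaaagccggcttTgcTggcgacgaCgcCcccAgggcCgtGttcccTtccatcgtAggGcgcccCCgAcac

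How far shared reads leave a count unsettled is given in the deposited tables as a posterior standard deviation. Relative to its count, that of Actg1 was 0.243% and 0.155% in replicates 1 and 2, and that of Actb 0.000321% and 1.18e-05%. By TPM, Actb was 5.38-fold above Actg1 in replicate 1 and 4.46-fold in replicate 2. That ratio leans on the transcript lengths assumed for Actb, which the model set at a mean of 994 and 1032 bases although the full-length transcript Actb-201 has 1920. When the same read pairs were divided by the effective length of the longest protein-coding transcript of each gene, a scale added after the data were seen, Actb had 2825 and 2150 and Actg1 1033 and 891, a ratio of 2.73 and 2.41. Actb was the higher gene on both scales.

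The cytoplasmic actins held most of the actin message of the organ. The 6 actin genes of the mouse also include Acta2 and Actg2 of smooth muscle, Acta1 of skeletal muscle and Actc1 of the heart. Actb and Actg1 together made up 69.4% of their summed TPM in replicate 1 and 69.3% in replicate 2. On the longest-transcript scale the shares were 54.7% and 55.9%. Acta2 (1213 ± 197 TPM) and Actg1 lay close together: Acta2 was higher by TPM in replicate 1 (1352 against 1142) and in replicate 2 (1074 against 992), but the ranges over both libraries overlapped. Actg2 (999.6 ± 339) had 1239 and 760 TPM, a range that encloses both values of Actg1.

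Pfn1, which encodes the widely expressed profilin (chromosome 11, 70651850 to 70654644, minus strand), had the second highest level, 3428 TPM in replicate 1 and 1401 in replicate 2 (mean 2414 ± 1434, n = 2; rank 25). From replicate 1 to replicate 2 its TPM dropped by 59.1%. Pfn2, the profilin known best from neurons (chromosome 3, 57841895 to 57848079, minus strand), had 1.80 and 1.88 TPM from 169 and 211 read pairs. The coding sequences of Pfn1 and Pfn2 are both 420 bases long and 61.7% identical, with no shared stretch over 12 bases. Pfn1 was 1904-fold above Pfn2 in replicate 1 and 745-fold in replicate 2, so nearly all profilin message in this tissue was Pfn1. Pfn3 and Pfn4, the remaining profilins, were listed at 0 in both libraries.

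Cfl1, which encodes the non-muscle cofilin (chromosome 19, 5490455 to 5495201, plus strand), had 160 and 144 TPM (152 ± 11.4). Cfl2, the muscle cofilin (chromosome 12, 54858809 to 54862877, minus strand), had 0.75 and 0.49 TPM from 118 and 93 read pairs, and was the one gene of the 10 that did not reach 1 TPM. The level of Cfl1 was 213-fold that of Cfl2 in replicate 1 and 293-fold in replicate 2. Their coding sequences (498 bases each) are 71.5% identical. Dstn, which encodes destrin, a close relative of cofilin, had 19.02 and 25.55 TPM (22.3 ± 4.62) and so lay between the cofilin genes.

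Beta thymosins were expressed at a similar, moderate level. Tmsb10 (chromosome 6, 72957347 to 72958748, minus strand) had 53.2 and 66.3 TPM (59.7 ± 9.24). Tmsb4x (chromosome X, 167207093 to 167209315, minus strand) had 31.3 and 35.9 TPM (33.6 ± 3.21). Tmsb10 was 1.70-fold above Tmsb4x in replicate 1 and 1.85-fold in replicate 2, and the ranges did not overlap. The short proteins these genes encode bind single actin subunits, and their coding sequences of 132 bases (44 codons) differ at 40 positions. They are shown whole, as the smallest coding sequences of the set, to let the reader see how far apart these similarly expressed genes are; capitals mark the bases that differ (GENCODE M21, sense strand).
Tmsb4x-201: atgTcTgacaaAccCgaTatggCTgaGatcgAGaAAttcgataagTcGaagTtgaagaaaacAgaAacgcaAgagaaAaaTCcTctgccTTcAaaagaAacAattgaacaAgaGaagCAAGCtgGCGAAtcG
Tmsb10-203: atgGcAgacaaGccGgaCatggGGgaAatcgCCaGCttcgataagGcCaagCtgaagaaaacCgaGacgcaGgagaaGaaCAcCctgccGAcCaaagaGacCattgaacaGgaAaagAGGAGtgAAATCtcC
Of 4 related beta thymosin genes (Tmsb15a, Tmsb15b1, Tmsb15b2, Tmsb15l), none reached 1 TPM, and the only read pairs were 6 of Tmsb15l in replicate 2.

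Ezr (chromosome 17, 6738041 to 6782784, minus strand) had 89.4 and 113 TPM (101 ± 16.3). Its relatives in the same family of membrane linkers were lower, with Msn (moesin) at 12.1 and 15.6 TPM and Rdx (radixin) at 0.88 and 1.77 TPM. Vil1 (chromosome 1, 74409376 to 74435559, plus strand) had 6.80 and 8.71 TPM (7.76 ± 1.35), so that Ezr was 13.2-fold above Vil1 in replicate 1 and 12.9-fold in replicate 2. Of the 7 other genes of the villin and gelsolin family, 6 had a higher mean TPM than Vil1 and Scin (0.50 and 0.20 TPM) a lower one. Gsn, which encodes gelsolin, had 487 and 673 TPM, Flii (flightless homolog) 146 and 152, and Vill (villin-like) 66.2 and 80.6. Genes that mark the small intestine, where villin is abundant, were summed at 30.7 TPM in replicate 1 and 20.6 in replicate 2, with 2 of 4 at 1 TPM or more in both (Apoa4 at 24.8 and 13.5, Alpi at 5.57 and 6.27). Their part in the level of Vil1 was not tested.

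**Figure D1:**
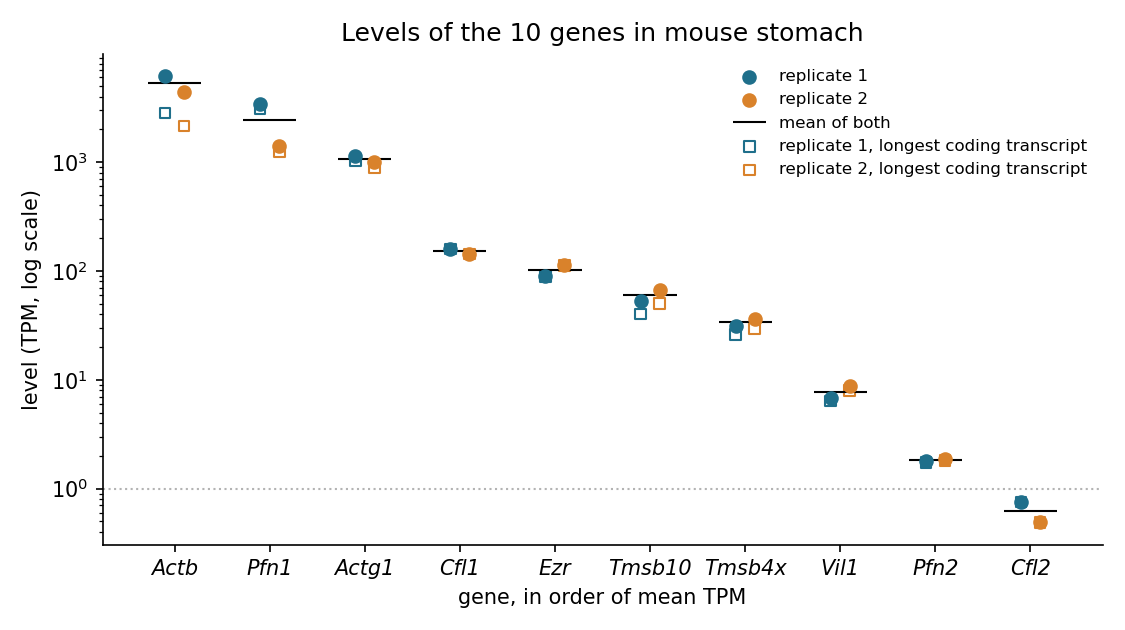
Level of each of the 10 genes in TPM on a log scale, in order of mean TPM; filled points are the deposited values of replicates 1 and 2, black lines their mean, and open squares the same read pairs divided by the effective length of the longest protein-coding transcript. The levels run from 5285 TPM for Actb to 0.62 for Cfl2, no gene overlaps its neighbour in the filled points, and for Actb each filled point lies more than 2-fold above its open square.

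The order by mean TPM was Actb, Pfn1, Actg1, Cfl1, Ezr, Tmsb10, Tmsb4x, Vil1, Pfn2 and Cfl2. It was the same in each library, and for each neighbouring pair the lower value of the higher gene exceeded the higher value of the lower gene. The closest were Pfn1 (1401 in replicate 2) and Actg1 (1142 in replicate 1), and Cfl1 (144 in replicate 2) and Ezr (113 in replicate 2). On the longest-transcript scale the top pair was not parted: Pfn1 (3091) was above Actb (2825) in replicate 1 and below it (1244 against 2150) in replicate 2. With 2 libraries these orders carry no test.

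The 10 genes did not share a direction between the libraries. Ratios are given as log2 of replicate 2 over replicate 1 on read pairs scaled to the library, with a 95% interval that covers counting error only. Lower in replicate 2 were Actb by -0.40 (interval -0.41 to -0.40), Actg1 by -0.22 (-0.24 to -0.21), Cfl1 by -0.15 (-0.20 to -0.11) and Pfn1 by -1.30 (-1.32 to -1.29). The median gene with a mean TPM of 5 or more was also lower, at -0.13. Centred on that median, Actb had -0.28, Actg1 -0.10, Cfl1 -0.03 and Pfn1 -1.18. Higher in replicate 2 were Tmsb10 by 0.36 (0.25 to 0.47), Ezr by 0.32 (0.29 to 0.35), Vil1 by 0.31 (0.20 to 0.43) and Tmsb4x by 0.18 (0.06 to 0.30). Pfn2 had 0.05 with an interval that spans 0 (-0.25 to 0.35), and Cfl2 had -0.60 (-1.02 to -0.21). The sign of each of the 10 was the same under each of 6 other settings of scaling, prior count or centring. Library scaling and centring move all genes by nearly the same amount, so a kept sign there mostly reflects the size of the ratio.

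Among the 7047 genes whose mean TPM was 5 or more, 6.24% were at least 2-fold higher in replicate 1 and 1.05% at least 2-fold higher in replicate 2. Of the 8 genes here above that level, Pfn1 alone passed 2-fold, with a 2.47-fold higher scaled level in replicate 1, and none passed 2-fold toward replicate 2. A count of 1 in 8 genes sets them apart from neither background share. The median ratio of the 8 was 0.01 against -0.13 over all 7047 genes, with 4 lower and 4 higher in replicate 2, where 62.4% of all genes were lower. Pfn1 lay below the lowest 5% limit of all 7047 genes (-1.09). Among the 757 genes whose mean TPM was 100 or more, with a median of -0.32 and an SD of 0.74, that limit was -1.40, and Pfn1 lay above it.

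Marker genes of several cell types also differed between the libraries. The 4 red blood cell genes were all over 2-fold higher in replicate 1 (median -1.41; summed level 613 and 210 TPM), with intervals wholly beyond 2-fold for Hba-a1 (-1.61), Hba-a2 (-1.32) and Hbb-bs (-1.49). Parietal cell genes had a median of -0.78 (4 of 4 lower; 5191 and 2888 TPM) and smooth muscle genes -0.71 (4 of 5 lower; 5390 and 3325 TPM), with Des at -1.26 wholly beyond 2-fold. Macrophage genes had a median of -0.59 (4 of 4 lower; 206 and 141 TPM). The 4 leukocyte genes, summed at 79.9 and 46.5 TPM, did not share a direction: Coro1a (-1.21, wholly beyond 2-fold) and Laptm5 (-0.96) were lower in replicate 2, Lcp1 (0.57) was higher, and Ptprc (-0.04) had an interval that spans 0. Higher in replicate 2 were chief cell genes (0.54, 4 of 4; 103698 and 151967 TPM), pit cell genes (0.44, 3 of 4; 50690 and 53212 TPM) and endothelial genes (0.49, 4 of 4; 146 and 169 TPM). Against the direction of their lists, the smooth muscle gene Myh11 was higher in replicate 2 (0.86, interval 0.82 to 0.90). Tff1, the pit cell gene of highest TPM, was lower (-0.17). No gene of these lists was at 0. Their part in the ratios of Pfn1, Actb or Ezr was not tested, and in whole tissue fewer cells of a type and less RNA per cell cannot be told apart.

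**Figure D2:**
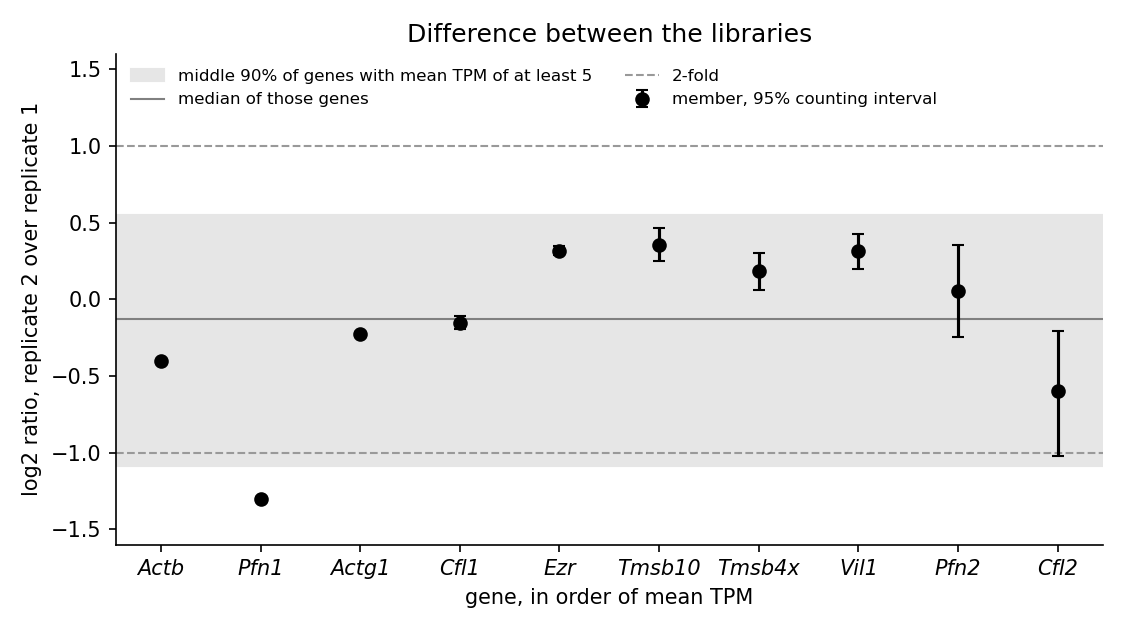
Log2 ratio of replicate 2 over replicate 1 for each of the 10 genes (points) with 95% counting intervals (bars), over the middle 90% of the 7047 genes whose mean TPM was 5 or more (grey band) and their median (grey line); dashed lines mark 2-fold. Pfn1 at -1.30 is the one point below the band, and Ezr, Tmsb10, Tmsb4x and Vil1 lie above 0 with intervals that do not reach it.

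The transcript tables divided several of these genes among isoforms, and the junction table allowed part of that division to be set beside reads that cross a splice site. For Actb, 8 transcripts were listed and 5 held at least 5% of the gene's TPM in a library. The largest was Actb-207 (32.7% and 40.7%), which lacks exon 3 of the full-length transcript and ends 386 bases earlier. Next came Actb-203 (27.0% and 28.2%), a fragment of 401 bases in which 150 bases inside exon 3 are left out, and Actb-208 (15.7% and 13.1%). The full-length Actb-201, with the whole coding sequence, was given 11.1% and 12.7%. Shares of TPM are per length: as shares of estimated read pairs, Actb-203 held 6.69% and 7.04% and Actb-201 held 24.1% and 26.2%. Actb-206, which has no coding sequence annotated, was given 13.3% and 4.96%.

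Junction reads of Actb lay almost entirely on the introns of Actb-201. The table lists 340787 junctions with at least 1 read, pooled over both libraries, on an older build (mm9), and its junctions were tied to genes by intron length and spacing. The 5 introns of Actb-201 had 80147, 66631, 24917, 7217 and 32281 reads from 5′ to 3′. Each of them is shared with another transcript, and both introns of Actb-208 are among them. These reads therefore do not single out Actb-201. No entry was listed for the join from exon 2 to exon 4 that defines Actb-207, beside 91548 reads on the joins into and out of exon 3. The 95% exact interval for its share of these reads reaches up to 0.00403%. Keeping exon 3 takes a join on each side of it, whereas skipping it takes 1. The 150-base gap that defines Actb-203 had no entry either. Actb-203 itself uses the joins into and out of exon 3, so their reads do not compete with its gap. By contrast these 2 transcripts together were given 59.7% of Actb TPM in replicate 1 and 68.9% in replicate 2, from 139038 and 147653 estimated read pairs. The join from the extra exon of Actb-206 to exon 4 had 132 reads, 0.527% of the 25049 reads joined to exon 4 from there or from exon 3 (95% exact interval 0.441% to 0.625%). The join from exon 3 into that extra exon had only 6 reads, a difference that the interval does not cover. Read and interval numbers cover counting error only.

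A listed join of Actb-201 and the unlisted one of Actb-203 are shown so that each can be searched for in reads; lower case is the 20 bases before the join and capitals the 20 bases after it, 5′ to 3′ on the sense strand, all within coding sequence of GENCODE M21. The intron positions are on mm10 (GRCm38), chromosome 5, minus strand: 142905477 to 142905563 between exons 2 and 3, and 142905279 to 142905428 for the gap in exon 3.
Actb-201 exon 2 to 3, 66631 reads: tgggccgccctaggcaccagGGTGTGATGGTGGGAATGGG
Actb-203 within exon 3, not listed: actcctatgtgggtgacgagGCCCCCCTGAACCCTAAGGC
Exon 3 has 240 bases and the gap 150, both multiples of 3, so that neither shifts the reading frame. The gap begins with GC and ends with AG, where most introns begin with GT.

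**Figure D3:**
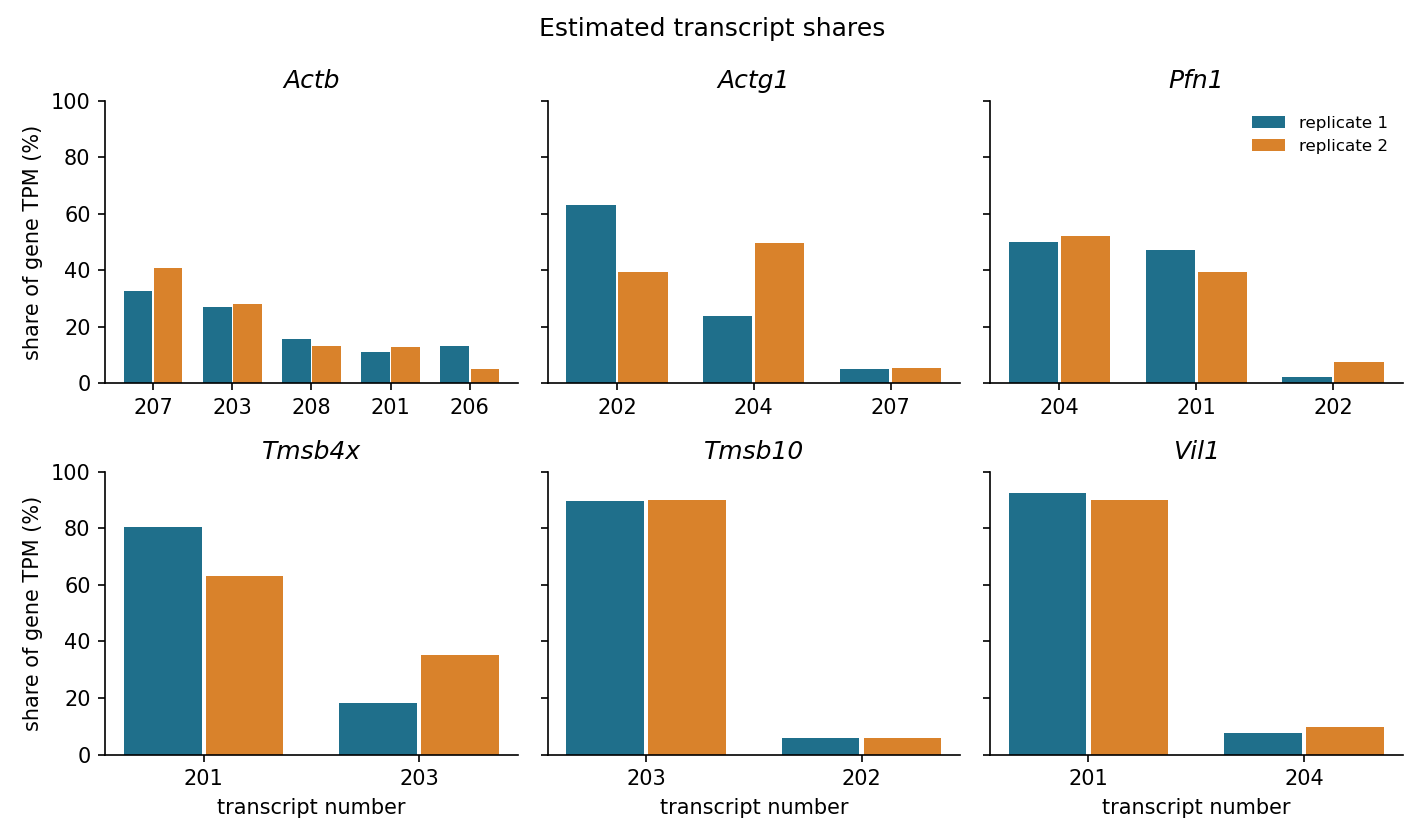
Share of each transcript in the TPM of its gene (percent, bars from 0) in replicates 1 and 2, for the 6 genes with more than 1 transcript at 5% or more; the numbers under the bars are the transcript numbers. Actg1-202 falls from 63.2% to 39.3% between the libraries while Actg1-204 goes from 23.6% to 49.6%, and Tmsb10 and Vil1 each have 1 transcript near 90%.

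Pfn1 showed the same contrast between estimated shares and junction reads. Pfn1-204, annotated as a target of nonsense-mediated decay, was given 50.1% and 52.1% of Pfn1 TPM, more than the full-length Pfn1-201 (47.0% and 39.2%). Pfn1-202 held 2.12% and 7.37%. Pfn1-204 differs in its splicing only by an acceptor 25 bases further on at the first intron, which is not a multiple of 3 and leaves 165 coding bases in place of 420. The first intron of Pfn1-201 (mm10 chromosome 11, 70652980 to 70654348, minus strand) had 3516 reads and that of Pfn1-204 (70652955 to 70654348) had 4, or 0.114% of both (95% exact interval 0.031% to 0.291%). The shared second intron had 12009 reads. The 2 joins of Pfn1 are printed in the same way, and the 25 bases that Pfn1-201 and Pfn1-202 keep and Pfn1-204 lacks follow them.
Pfn1-201 first join, 3516 reads: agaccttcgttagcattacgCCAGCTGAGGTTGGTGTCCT
Pfn1-204 first join, 4 reads: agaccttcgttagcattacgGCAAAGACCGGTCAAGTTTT
Bases between the acceptors: ccagctgaggttggtgtcctggtag

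Actg1 was split differently in each library. Actg1-202 was given 63.2% in replicate 1 and 39.3% in replicate 2, and Actg1-204 was given 23.6% and 49.6%. All 1827 bases of Actg1-204 lie within Actg1-202, which has 125 more, all but 1 of them at the 5′ end, and both contain the same 1125 coding bases. Their sum was steadier, at 86.8% and 88.8%. Actg1-207, which retains an intron, held 5.12% and 5.53%. Actg1-202 differs from Actg1-204 by its first intron, which had 112 reads. No intron of Actg1 had more than 371 reads, that is, 1.75 reads per 1000 read pairs assigned to the gene, against 150 per 1000 for the highest intron of Actb and 68.9 for Pfn1. Actg1-206, annotated as a target of nonsense-mediated decay, carries an extra exon. Of the reads joined to the acceptor after that exon, 163 came from it and 121 skipped it, a share of 57.4% for the extra exon (95% exact interval 51.4% to 63.2%). The transcript tables gave Actg1-206 1.98% and 1.83% of Actg1 TPM. How the junction table treated reads that match several places is not given in the sources used here.

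For Tmsb4x, estimated shares and junction reads lay closer together. Tmsb4x-201 and Tmsb4x-203 use alternative first exons that join the same second exon (mm10 chromosome X, introns 167208052 to 167209105 and 167208052 to 167209007, minus strand). Tmsb4x-203, whose coding sequence is annotated as 150 bases in place of 132, was given 18.3% and 35.2% of the TPM, and Tmsb4x-201 80.7% and 63.0%. The joins had 94 and 390 reads, so that 19.4% of these reads (95% exact interval 16.0% to 23.2%) belonged to Tmsb4x-203. A further join to the same acceptor, 5 bases from that of Tmsb4x-203 and absent from the annotation used, had 77 reads.

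The remaining genes were dominated by 1 transcript. Tmsb10-203 held 89.8% and 90.2% and Tmsb10-202 5.72% and 5.89%, and no junctions could be tied to Tmsb10. Vil1-201 held 92.4% and 90.1% and the intron-retaining Vil1-204 7.65% and 9.87%. The share of Vil1-204 rested on 13.61 and 27.65 estimated read pairs, 1.27% and 1.72% of those of the gene. Its posterior standard deviation was 47.2% and 31.8% of the count. Of the 20 annotated introns of Vil1, 18 were listed, and the first 3 of Vil1-201 had 366, 344 and 981 reads whereas the 15 later listed ones had between 7 and 115. Ezr-201 held 99.96% and 100%, and each of its 12 introns was listed, with 34 to 2497 reads. Cfl1 had 131, 517 and 500 reads on the introns of Cfl1-201. Pfn2-201 held all of Pfn2, with at most 17 reads on an intron. Cfl1-201 and Cfl2-201 were the only transcripts of their genes in the tables used here, so their shares divide nothing. For Cfl2, the intron that in the later annotation (GENCODE M21) Cfl2-201 alone has was crossed by 1 junction read, and the intron that only Cfl2-203 has by 27. The highest intron of Cfl2, with 69 reads, is shared by Cfl2-201, Cfl2-203 and Cfl2-206, and the last intron of Cfl2-201 was not listed.

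**Figure D4:**
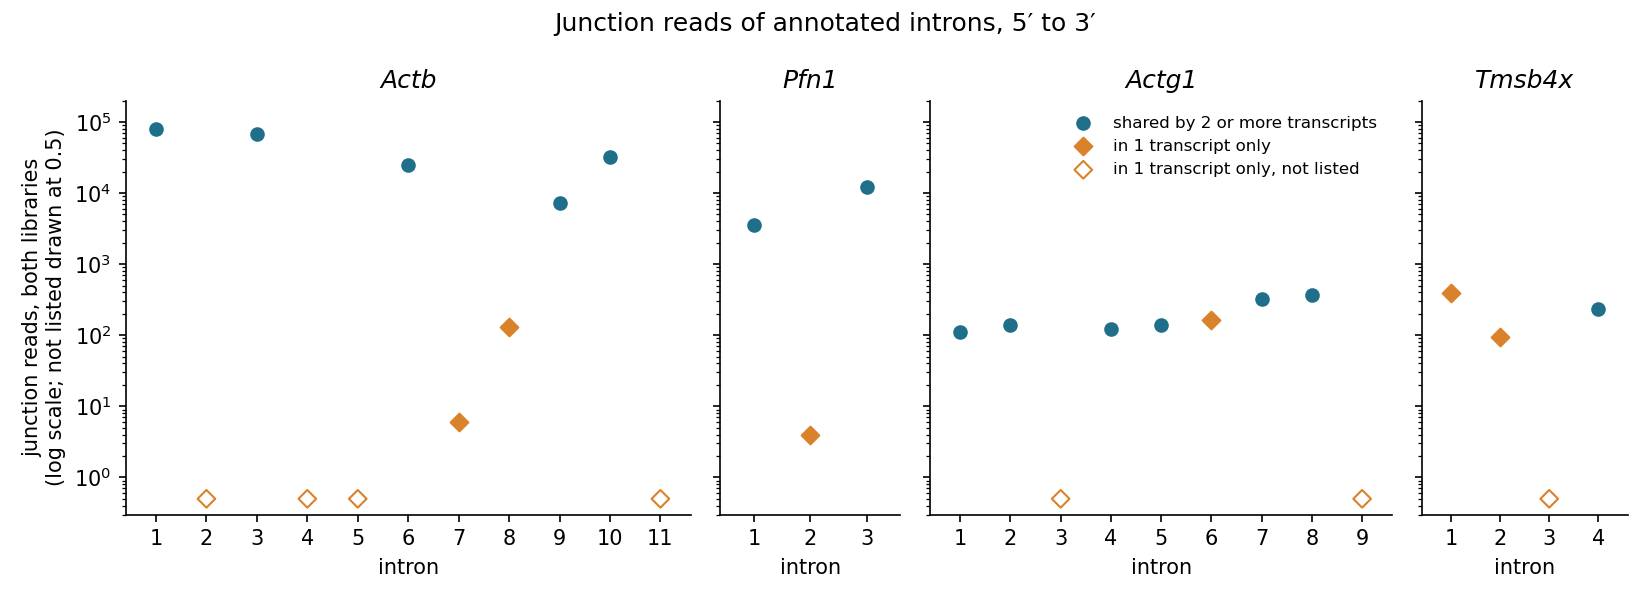
Reads of both libraries on each annotated intron of Actb, Pfn1, Actg1 and Tmsb4x, numbered 5′ to 3′, on a log scale; circles are introns that at least 2 transcripts share, diamonds introns of 1 transcript, and open diamonds introns with no entry in the junction table, drawn at 0.5. The introns of Actb-207 and Actb-203 (introns 4 and 5 of Actb) have no entry, that of Pfn1-204 (intron 2 of Pfn1) has 4 reads, and those of Actg1 reach 371.

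Genes that work with these 10 were examined in 12 lists of 97 symbols, of which 94 had a row. Of these 94, 77 reached 1 TPM in both libraries, beside 10499 of the 21474 protein-coding genes. The median level over all 94 was 17.3 TPM against 1.15 over all protein-coding genes. Of the 58 whose mean TPM was 5 or more, 1 was at least 2-fold higher in replicate 1 (the Arp2/3 subunit gene Arpc5l, -1.06, named because the count is small) and none in replicate 2, beside the 6.24% and 1.05% of all genes. As for the 10 genes, the directions were mixed, with 33 of 58 lower and 25 higher in replicate 2. Over all 7047 genes with a mean TPM of 5 or more, 62.4% were lower, so this split is near the background.

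Filament-building machinery was well represented. All 9 genes of the Arp2/3 complex, which starts branched filaments, reached 1 TPM (median 40.6), led by Arpc1b (217 and 282 TPM), Arpc2 (221 and 125) and Arpc3 (58.8 and 79.3). Their activators and the formins were lower, with a median of 2.70 TPM over 12 genes and with Wasl (98.9 and 59.5), Cttn, which encodes cortactin (59.4 and 67.5), and Spire2 (31.9 and 23.9) at the top. Tropomyosins and crosslinkers had a median of 47.9 TPM over 9 genes, with the filamin gene Flna at 670 and 661 TPM, Actn4 (an alpha actinin) at 238 and 222 and Tpm1 at 128 and 129. Of the genes that cap filament ends (median 5.36 over 10), Capzb stood at 181 and 63.2, Add1 at 71.6 and 62.2 and Twf2 at 19.6 and 16.3. TPM and read pairs parted for some of these genes: the log2 ratio of scaled read pairs was -0.21 for Arpc1b, whose TPM was higher in replicate 2, and -0.52 for Capzb, whose TPM differed by far more.

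Among the regulators of cofilin, 11 of 12 genes reached 1 TPM (median 36.4). Coro1b had 148 and 138 TPM, Wdr1, whose product helps cofilin take filaments apart, 53.9 and 56.0, and Limk2, a kinase that switches cofilin off, 52.6 and 47.5. Of the partners of ezrin (median 8.62 TPM over 10 genes), Slc9a3r2 (82.6 and 68.9) and Slc9a3r1 (53.3 and 39.0) encode scaffolds that link ezrin to membrane transporters, and Rhoa (83.3 and 53.9) encodes a switch of actin assembly. The list drawn up for the brush border (median 7.55 over 10) was led by Eps8l2 (96.3 and 103), Espn (56.6 and 31.9) and Mpp1 (26.6 and 34.8), and 8 of 10 reached 1 TPM. That list was chosen by symbol, and Mpp1 was not shown here to be a brush border gene.

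**Figure D5:**
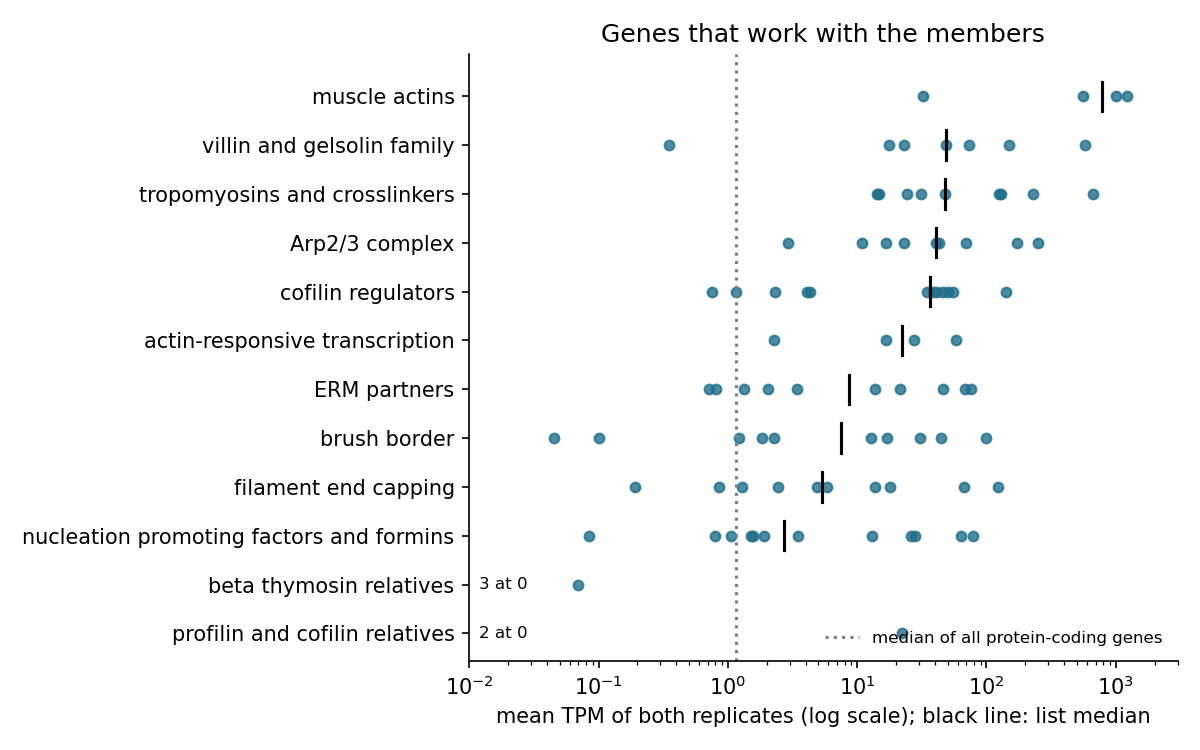
Mean TPM of each gene of the 12 lists (points, log scale) with the median of each list (black line) and of all protein-coding genes (dotted line at 1.15 TPM); the number of genes at 0 is written at the left, and a list whose median is 0 has no line. The muscle actins lie highest, with a median of 779 TPM, and 10 of the 12 medians lie above the dotted line.

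Free actin subunits regulate transcription through the coactivators Mrtfa and Mrtfb and the factor SRF, whose binding site is called the CArG box and whose known targets include actin genes. Srf had 70.8 and 45.3 TPM, Mrtfa 29.1 and 25.9 and Vcl, which encodes vinculin and is a known target, 14.0 and 19.5. The CArG box (CC, 6 bases of A or T, GG; the pattern reads the same on both strands) was searched for in windows of 300 bases around gene starts from RefSeq (GRCm38.p6), from 250 bases before to 50 after. Of the 32851 windows, 1.63% held a match, and of the 27025 genes with a window, 1.81% had one. Actb had no window and so was not searched. Among the 9 genes here with a window, Actg1 and Vil1 had a match. The box, in capitals, starts 90 bases before the start of Actg1 (chr11:120348566-120348595, minus strand) and 73 before that of Vil1 (chr1:74409301-74409330, plus strand).
Actg1: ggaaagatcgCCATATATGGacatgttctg
Vil1: ccctatcttcCCTTATATGGtgaaggaagt
Of the muscle actin genes, Acta1 and Actc1 also had a match, Acta2 had none, and Actg2 had no window. A match is a description of the letters and not a measured binding site.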

How the data were processed

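Polyadenylated RNA of 2 stomach libraries was analysed from the authors' tables. The deposited gene and transcript tables hold expected counts, TPM and FPKM, and the percent each transcript takes of its gene, on mm10 with GENCODE M4 models, per the README beside the tables; the column names are those RSEM writes, and no source used here gives the quantifier's version. The authors deposited junction counts on mm9; these were tied to genes by intron length and spacing (at least 2 junctions), a procedure tested on simulated data. No coordinates were converted. Symbols and positions came from GENCODE M21 (98.0% of 43346 IDs). The 96 spike-ins stayed out of library sizes.

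Ratios used expected counts rounded to whole numbers, TMM in edgeR 4.0.16 on 15234 genes kept by filterByExpr, and a prior count of 2, with exact conditional binomial (Clopper-Pearson) intervals at 95%, which cover counting error only since reads that carry no molecular identifier may be copies of 1 molecule. At these depths 3 read pairs on Cfl2 equal 0.0191 and 0.0158 TPM. With 1 group no test was run. Alternatives were DESeq2 1.42.0 size factors, total or spike-in scaling, median centring, other filters, limits and prior counts, posterior mean TPM and leaving out each replicate. The genes and lists were chosen with earlier results of these data known. Named genes are the 10, up to 3 of highest TPM per list, those of at least 5 TPM wholly beyond 2-fold, and transcripts with a share of at least 5%; Msn, Rdx, Arpc5l, Mrtfb, Scin, Lcp1, Ptprc, Tmsb15l, the transcripts Actg1-206, Cfl2-203 and Cfl2-206, and the relatives at 0 were named after their values were seen. The markers Myh11 and Tff1 were also named after their values were seen. Of the listed symbols, Pdxp, Mkl1 and Mkl2 had no row. The last 2 are older names of Mrtfa and Mrtfb.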

Additional observations from a re-analysis of the deposited data

How the results depend on the processing

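Each of the 10 log2 ratios kept its sign under all 6 other scalings, prior counts or centrings (Pfn1 -1.35 to -1.18, Actb -0.47 to -0.28, Cfl1 -0.20 to -0.03, Pfn2 0.01 to 0.18), and Pfn1 stayed beyond 2-fold under each. Since library scaling and centring move all genes nearly alike, these kept signs are no separate support, least of all for Pfn2, whose interval spans 0. TPM is a share of each library, so rescaling without Clps and Pgc, the 2 genes of highest TPM, raised Actb to 8395, Pfn1 to 3730.0, Actg1 to 1711, Cfl1 to 244, Ezr to 165, Tmsb10 to 97.6, Tmsb4x to 54.7, Vil1 to 12.7, Pfn2 to 2.98 and Cfl2 to 0.98 TPM. Dividing by the longest coding transcript, chosen after the data were seen, gave Actb 2488, Tmsb10 45.3, Tmsb4x 27.9 and Pfn2 1.78, and the posterior mean TPM of Pfn2 was 1.90.
Counted per read pair and not per length (CPM), 4 of the 10 genes kept their place in the order. The count of all genes at least 2-fold higher in replicate 1 (440) was 281 with a mean TPM of 20 or more, 1276 with a minimum of 10 read pairs alone and 1216 at a 1.5-fold limit. Toward replicate 2 the count (74) was 29, 1762 and 304 under the same settings, and 321 with a mean TPM of 1 or more. No paired analysis was possible because the labels give 1 group. Leaving out a replicate gives the other library's value, printed in the text. Depth limits Cfl2 and Pfn2, whose intervals are the widest, and their junction reads. Actg1 had 211958 read pairs over both libraries and Pfn1 174302, beside at most 371 and 12009 reads on an intron. The cause of the low junction reads of Actg1 was not tested.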
